A study of Mus musculus with 8 samples.

Results

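The calcium release and calcineurin genes described here are Plcg1, Itpr1, Itpr2, Itpr3, Stim1, Stim2, Orai1, Orai2, Ppp3ca and Ppp3cb. They were found by symbol in a table of 12417 genes from donor CD4+ T cells on d5 after allogeneic hematopoietic cell transplantation (alloHCT), and all 10 were listed and passed the filter of a mean of at least 1 TPM. The set was proposed with the ST2fl/fl against ST2WT values of these libraries already known, so those values are a description, no p-value is given for them, and where the fit over all genes put one of them past its limits this is stated only beside the share of all genes. Both donor populations were B6 T cells that shared each lethally irradiated BALB/c recipient and were sorted from its spleen. The 4 ST2fl/fl libraries came from CD45.2+ cells of CD4-Cre x R26-LSL-YFP x St2fl/fl mice, in which Cre driven by CD4 removes ST2, the IL-33 receptor, and switches on YFP. The 4 ST2WT libraries came from CD45.1+ St2+/+ cells, which by their description carry neither Cre nor the reporter. The study asked with these libraries which pathways IL-33 controls in alloreactive CD4+ T cells during early graft-versus-host disease (GVHD), and each of the 4 recipients gave 1 library of each population. The labels give a number and no recipient, and libraries with the same number were taken to come from 1 recipient. Loss of ST2, Cre, the reporter, the CD45 allele and strain differences linked to them cannot be told apart in this design.

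T cell receptor (TCR) engagement activates phospholipase C gamma, which cuts a membrane lipid to make inositol trisphosphate (IP3). IP3 opens its receptors on the endoplasmic reticulum and empties the calcium store, STIM proteins sense the emptied store and open ORAI channels in the plasma membrane, and the entering calcium activates the phosphatase calcineurin. Calcineurin dephosphorylates NFAT transcription factors so that they enter the nucleus, where with AP-1 they drive cytokine genes and without it they drive genes of T cell anergy.

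Promoter sequences are shown for Itpr2 and Plcg1, the 2 genes whose ST2fl/fl libraries all lay above every ST2WT library, as in 5.45% of all genes tested. That of Itpr3, the receptor gene whose libraries were intermixed, is shown beside them. RefSeq on GRCm38.p6 held a window of 250 bases before to 50 bases after the start for 8 of the 10 genes, and for Itpr1 and Ppp3ca none was printed. The Itpr2 window is chr6:146502174-146502473 on the minus strand, the Plcg1 window chr2:160731060-160731359 on the plus strand and the Itpr3 window chr17:27057054-27057353 on the plus strand. Capitals mark the GC box, GGGCGG or its reverse complement CCGCCC, a motif known to be bound by factors of the Sp family.
Itpr2: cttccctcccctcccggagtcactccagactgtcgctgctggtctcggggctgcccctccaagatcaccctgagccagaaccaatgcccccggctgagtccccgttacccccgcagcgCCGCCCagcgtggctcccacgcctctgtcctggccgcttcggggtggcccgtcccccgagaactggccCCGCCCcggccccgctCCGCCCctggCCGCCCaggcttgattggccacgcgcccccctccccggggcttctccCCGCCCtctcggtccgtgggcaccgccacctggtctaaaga
Plcg1: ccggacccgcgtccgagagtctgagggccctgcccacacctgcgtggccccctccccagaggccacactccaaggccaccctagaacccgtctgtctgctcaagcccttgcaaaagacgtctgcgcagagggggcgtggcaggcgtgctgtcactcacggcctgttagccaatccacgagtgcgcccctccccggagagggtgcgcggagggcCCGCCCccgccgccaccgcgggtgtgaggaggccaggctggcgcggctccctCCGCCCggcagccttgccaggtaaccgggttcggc
Itpr3: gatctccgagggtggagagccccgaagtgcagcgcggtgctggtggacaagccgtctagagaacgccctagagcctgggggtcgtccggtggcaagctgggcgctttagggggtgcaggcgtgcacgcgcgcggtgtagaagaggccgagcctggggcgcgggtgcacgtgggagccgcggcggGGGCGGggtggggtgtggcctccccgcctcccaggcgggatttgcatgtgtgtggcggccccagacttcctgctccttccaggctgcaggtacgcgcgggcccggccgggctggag
The GC box was found in 8 of the 8 windows, and in 35.7% of 32851 mouse promoter windows of the same length. Stim1 held the most matches with 8, Itpr2 had 5, and Itpr3 had the fewest with 1. The letters GGAAA or TTTCC, the core of NFAT sites, were found in the windows of Orai2 (1 match) and Ppp3cb (4 matches), which is 2 of 8 windows against 61.3% of all promoters. CCAAT on either strand was found in 4 of the 8 windows and in 37.4% of all promoters, and CACGTG, an E-box that reads the same on both strands, was found in 2 windows and in 7.2% of all promoters. The windows of Itpr2, Itpr3 and Plcg1 held 73.3%, 72.3% and 72.0% G and C, that of Ppp3cb held 51.0%, and the median over all promoters was 52.7%. These are matches of letters only.

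The values are TPM, a share of each library's transcripts scaled by gene length, as the authors made them. Numbers of reads cannot be had from TPM, so depth is unknown and no counting interval is given. The libraries are bulk, so a smaller number of cells that express a gene and less of its RNA per cell cannot be told apart. All 8 CD4 T cell markers searched (Cd3d, Cd3e, Cd3g, Cd4, Cd5, Trac, Lck and Cd28) were listed, with a sum of 8397 to 8563 TPM in ST2fl/fl libraries and 7202 to 7520 TPM in ST2WT libraries. Markers of other cells were lower. The 4 listed of 5 CD8 or gamma-delta T cell markers summed to 62.5 to 112 TPM in ST2fl/fl and 39.8 to 80.6 TPM in ST2WT libraries, with Cd8a not listed. The 3 listed of 4 NK cell markers summed to 65.3 to 89.5 TPM in ST2fl/fl and 75.7 to 102 TPM in ST2WT libraries, with Ncr1 not listed. Most of that sum was Eomes, with 62.1 to 88.1 TPM in ST2fl/fl and 70.0 to 98.0 TPM in ST2WT libraries. Klrb1c and Klre1 had 0.531 to 2.53 TPM in ST2fl/fl and 1.15 to 4.54 TPM in ST2WT libraries. The 2 listed of 6 B and plasma cell markers summed to 14.4 to 35.9 TPM in ST2fl/fl and 16.8 to 29.2 TPM in ST2WT libraries, with Cd79a, Ms4a1 and Jchain among those not listed. Of myeloid, erythroid or platelet, and fibroblast or endothelial markers only Fcer1g (1 of 6), Hba-a1 (1 of 6) and Pecam1 (1 of 5) were listed. Fcer1g had 25.3 to 42.8 TPM in ST2fl/fl and 17.4 to 31.2 TPM in ST2WT libraries, Hba-a1 0.968 to 2.60 TPM in ST2fl/fl and 1.38 to 3.32 TPM in ST2WT libraries, and Pecam1 9.31 to 11.6 TPM in ST2fl/fl and 12.6 to 15.3 TPM in ST2WT libraries. A gene is listed only where it was above 0 in all 8 libraries. Il1rl1, which encodes ST2, had 15.8, 14.9, 16.7 and 17.7 TPM in ST2fl/fl cells and 18.6, 14.6, 21.3 and 18.2 TPM in ST2WT cells of recipients 1 to 4, with a log2 fold change of -0.14 (SE 0.12, limma adjusted p = 0.608). Reads outside the floxed part may be counted for it, so this value checks no label. Cell markers and Il1rl1 were not tested as a source of the differences below.

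One library stood apart. In the ST2WT library of recipient 2 the genes lay a median of -0.49 on the log2 scale from their mean over all libraries, against -0.03 to 0.25 in the other 7 libraries. It was the lowest of the 8 libraries in 9 of the 10 genes and the lowest of the 4 ST2WT libraries in all 10. Over all 10238 genes tested it was the lowest of 8 in 31.7% and the lowest ST2WT library in 39.4%. The SD of its log2 differences from the other ST2WT libraries over all genes was 0.465, and for the other libraries, each against its own genotype, 0.242 to 0.279. Genes with merged exons over 8000 bases lay a median of -0.24 from the other libraries of the genotype in it and -0.06 to 0.12 in the others, and 6 of the 10 genes (Itpr1, Itpr2, Itpr3, Stim1, Ppp3ca and Ppp3cb) are that long. Transcripts encoded in mitochondria took 9.18% of its TPM and 12.7% to 13.8% elsewhere. The ST2fl/fl library of recipient 2 was also low. It was the lowest of the 4 ST2fl/fl libraries in 8 of the 10 genes, and in 33.2% of all genes tested. Its median distance from the gene means was -0.01, against 0.12 to 0.25 in the other ST2fl/fl libraries. What sets the ST2WT library of recipient 2 apart was not tested. The fold change of each of the 10 genes is given with and without that ST2WT library, and the fits without it keep the ST2fl/fl library of recipient 2.

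**Figure D1:**
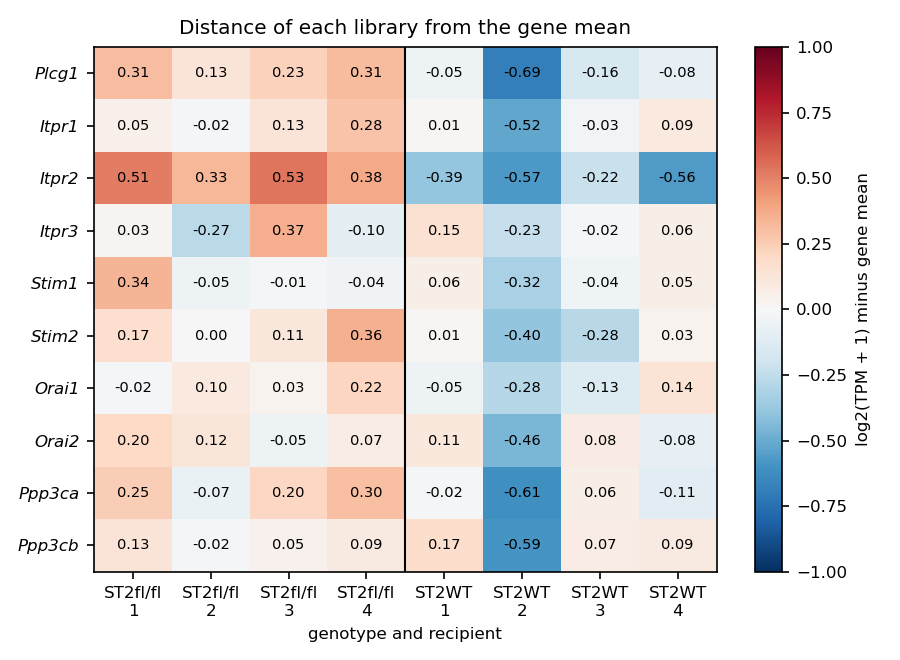
Distance of each library (columns, genotype and recipient) from the mean of each gene over 8 libraries, on the log2(TPM + 1) scale, with red above and blue below the mean. The ST2WT library of recipient 2 is below the mean in every gene, and Itpr2 and Plcg1 are above it in every ST2fl/fl library and below it in every ST2WT library.

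Across all genes, limma on log2(TPM + 1) called 53 of 10238 genes past an adjusted p of 0.05 and a fold change of 1.5, 28 higher (0.273%) and 25 lower (0.244%) in ST2fl/fl cells, or 0.518% of genes (95 genes or 0.928% with the recipient as a block, and 104 of 10263 genes or 1.01% without the ST2WT library of recipient 2). Among the 10 genes described, 1 was past both limits, Itpr2, and it was past them in each of those fits. All 10 genes had a log2 fold change above 0 and none below, where 51.7% of all genes were above 0. Their median log2 fold change was 0.20 and that of all genes 0.01. The 1569 genes with merged exons over 8000 bases had a median of 0.09 (0.03 without the ST2WT library of recipient 2), and 6 of the 10 are in that class. Without the ST2WT library of recipient 2, 8 of the 10 were above 0, with a median of 0.09, against 0.01 for all genes. Without both libraries of recipient 2 the median of the 10 was 0.11. The log2 fold changes were then 0.38 (Plcg1), 0.13 (Itpr1), 0.87 (Itpr2), 0.04 (Itpr3) and 0.07 (Stim1). For the other genes they were 0.29 (Stim2), 0.09 (Orai1), 0.04 (Orai2), 0.27 (Ppp3ca) and -0.02 (Ppp3cb). In 6 of the 10 the ST2fl/fl library was higher in 4 of 4 recipients, as in 16.7% of all genes, and in 2 every ST2fl/fl library was above every ST2WT library, as in 5.45% of all genes. In none was every ST2fl/fl library below every ST2WT library, as in 4.58% of all genes. The genes were chosen on this contrast, so nothing is read from these counts.

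**Figure D2:**
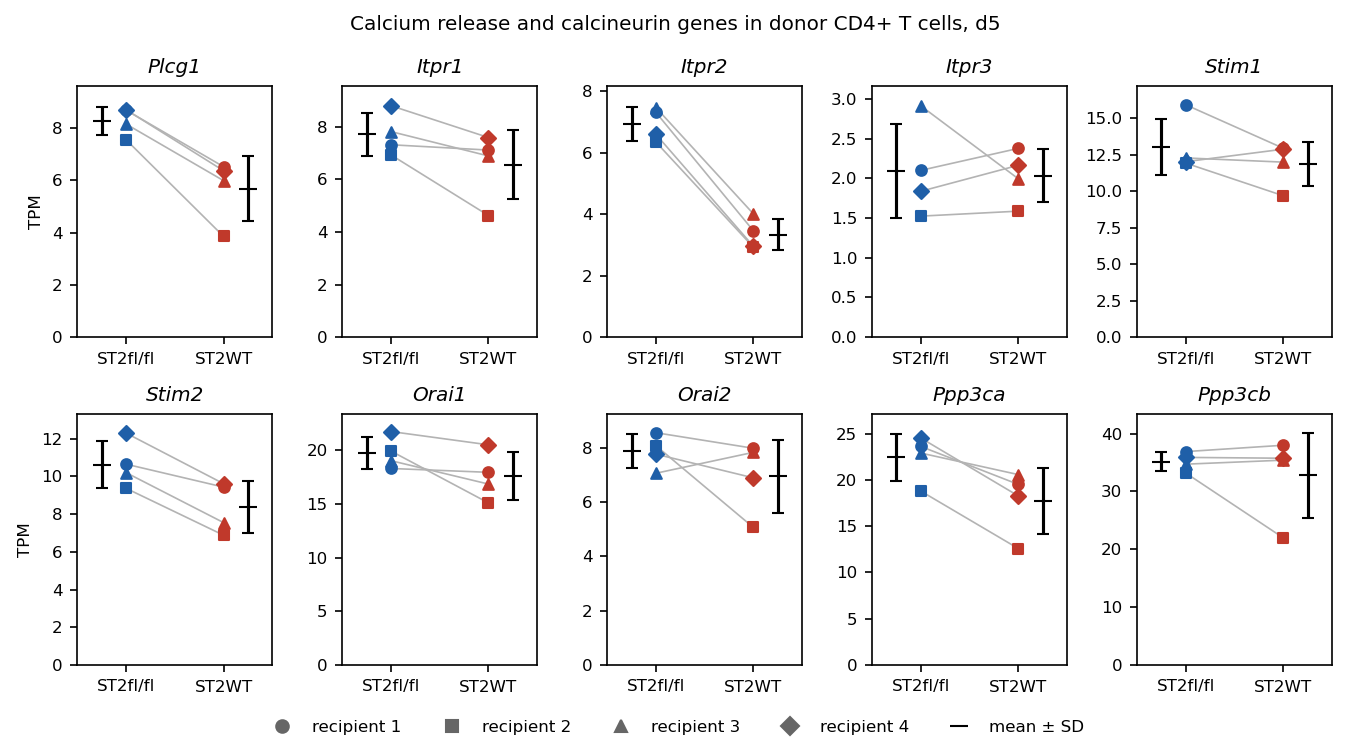
TPM of the 10 genes in ST2fl/fl (left, blue) and ST2WT (right, red) donor CD4+ T cells, with a symbol per recipient, gray lines joining the libraries of a recipient and bars for the mean ± SD of 4 libraries. Itpr2 is at 6.35 to 7.47 TPM in ST2fl/fl and 2.92 to 4.01 TPM in ST2WT libraries, and in the other genes except Plcg1 the groups overlap.

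Plcg1 encodes phospholipase C gamma 1, the main isoform that makes IP3 below the TCR. Plcg1 had 8.69, 7.56, 8.16 and 8.71 TPM in ST2fl/fl cells of recipients 1 to 4, and 6.53, 3.86, 5.99 and 6.37 TPM in ST2WT cells. The ST2fl/fl library was higher in every recipient, and the groups did not overlap. The means were 8.28 ± 0.544 TPM in ST2fl/fl and 5.69 ± 1.24 TPM in ST2WT cells (SD, n = 4 each), a ratio of 1.46. The log2 fold change was 0.49 (SE 0.15), and 0.35 (SE 0.096) without the ST2WT library of recipient 2. Plcg1 lies on chr2:160731300-160775760, plus strand (GRCm38), where Zhx3 and Gm27206 overlap it on the other strand. Gm27206 had 1.58 TPM in ST2fl/fl and 0.818 TPM in ST2WT cells, and Zhx3 had 0.772 TPM in ST2fl/fl and 0.741 TPM in ST2WT cells. The sources used here do not state whether the counting used strand, so reads of Plcg1 and of these genes may not be told apart.

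The 3 IP3 receptors are calcium channels of the endoplasmic reticulum that open when they bind IP3, and they differ in their affinity for it and in how calcium regulates them. Itpr2, the type 2 receptor, had the largest fold change of the 10 genes, while in TPM the means of Ppp3ca lay further apart. It had 7.31, 6.35, 7.47 and 6.60 TPM in ST2fl/fl cells of recipients 1 to 4, and 3.46, 2.92, 4.01 and 2.96 TPM in ST2WT cells. The groups did not overlap, and the lowest ST2fl/fl library lay well above the highest ST2WT library. Within a recipient the ratio of ST2fl/fl to ST2WT was 2.11, 2.17, 1.86 and 2.23. The means were 6.93 ± 0.543 TPM in ST2fl/fl and 3.34 ± 0.511 TPM in ST2WT cells (SD, n = 4 each), with a log2 fold change of 0.88 (SE 0.12). Leaving out the ST2WT library of recipient 2 gave 0.83 (SE 0.12), so the difference in Itpr2 did not rest on that library. Without the ST2fl/fl library of recipient 1 the log2 fold change was 0.85 and Itpr2 was no longer past both limits, where 23 of all genes were. It was also not past them without both libraries of recipient 1, 3 or 4, with log2 fold changes of 0.868, 0.915 and 0.853. In those fits 9, 20 and 20 of all genes were past both limits, against 53 with all libraries.

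Itpr1, the type 1 receptor, had 7.32, 6.94, 7.82 and 8.81 TPM in ST2fl/fl cells of recipients 1 to 4, and 7.12, 4.63, 6.89 and 7.60 TPM in ST2WT cells. It was higher in ST2fl/fl cells of every recipient, but the groups overlapped, and only recipient 2 showed a wide gap. The means were 7.72 ± 0.810 TPM in ST2fl/fl and 6.56 ± 1.32 TPM in ST2WT cells (SD, n = 4 each). The log2 fold change of 0.22 (SE 0.15) became 0.08 (SE 0.10) without the ST2WT library of recipient 2. Itpr1 overlaps Gm44040, on the other strand, with 4.75 TPM in ST2fl/fl and 5.53 TPM in ST2WT cells.

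Itpr3, the type 3 receptor, had 2.10, 1.53, 2.92 and 1.84 TPM in ST2fl/fl cells of recipients 1 to 4, and 2.38, 1.59, 2.0 and 2.17 TPM in ST2WT cells. The libraries were intermixed, and in recipient 3 alone was the ST2fl/fl library the higher one. The means were 2.10 ± 0.595 TPM in ST2fl/fl and 2.03 ± 0.335 TPM in ST2WT cells (SD, n = 4 each), with a log2 fold change of 0.02 (SE 0.16), which was -0.06 (SE 0.16) without the ST2WT library of recipient 2.

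With these values the makeup of the receptor transcripts differed between the genotypes. The sum of the 3 receptors was 16.7 ± 1.43 TPM in ST2fl/fl and 11.9 ± 1.86 TPM in ST2WT cells (SD, n = 4 each), or 12.7 to 13.0 TPM in the ST2WT libraries other than that of recipient 2. Itpr2 made up 43.7%, 42.9%, 41.0% and 38.3% of that sum in ST2fl/fl cells of recipients 1 to 4, and 26.7%, 32.0%, 31.1% and 23.2% in ST2WT cells. Its share was above that of every ST2WT library in each ST2fl/fl library. The share of Itpr1 was 43.0% to 51.1% in ST2fl/fl and 50.6% to 59.7% in ST2WT cells, so the ranges overlapped, and it was the largest of the 3 shares in all 8 libraries, by little in the ST2fl/fl libraries of recipients 1 and 3. The share of Itpr3 was 10.3% to 16.0% in ST2fl/fl and 15.5% to 18.4% in ST2WT cells. A share is a ratio within a library and shows unequal change only. The share of Itpr2 in the ST2WT library of recipient 2, 32.0%, was the highest of that genotype.

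**Figure D3:**
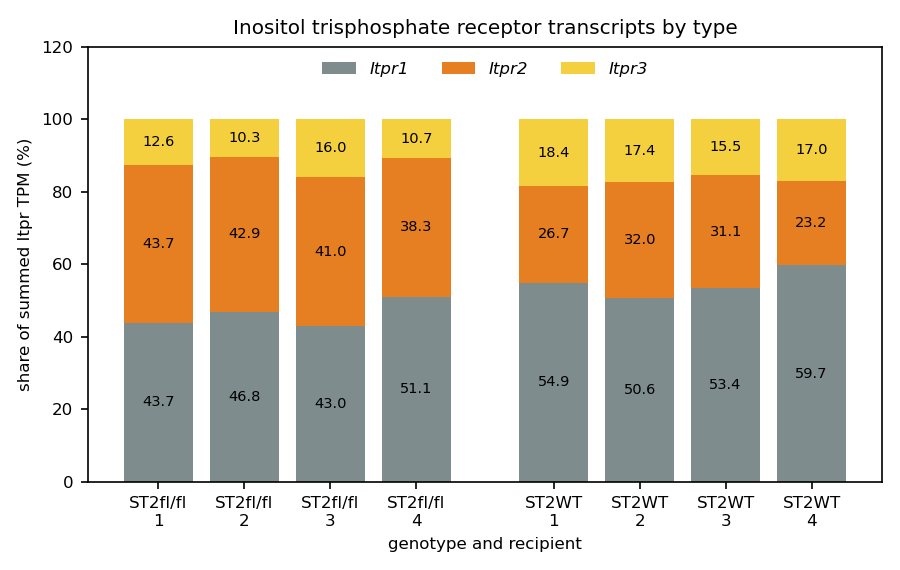
Share (%) of the summed TPM of Itpr1, Itpr2 and Itpr3 taken by each receptor in each library, with ST2fl/fl libraries on the left and ST2WT libraries on the right. The Itpr2 share is 38.3% to 43.7% in ST2fl/fl and 23.2% to 32.0% in ST2WT libraries.

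Itpr1 and Itpr2 both lie on chromosome 6, at chr6:108213096-108551109 on the plus strand and chr6:146108299-146502223 on the minus strand, and so does the ROSA26 locus that carries the YFP reporter of ST2fl/fl cells. This neighborhood was looked at after its values were seen. Its transcript Gt(ROSA)26Sor had 36.9 ± 4.39 TPM in ST2fl/fl and 101 ± 7.16 TPM in ST2WT cells (SD, n = 4 each), a log2 fold change of -1.44. Itpr1 lies 4.52 Mb and Itpr2 33 Mb from it. On chromosome 6, 10 of 499 genes tested (2.0%) were past both limits, and on the other chromosomes 42 of 9442 (0.445%). From Itpr1 to Itpr2 there were 8 of 163 (4.91%), which include Itpr2 itself and Gt(ROSA)26Sor, and 5 of the other 6 lie close together at chr6:128887588-129678973. Within 2 Mb of Itpr2, 13 other genes were tested, with log2 fold changes of -0.63 to 0.91, a median of 0.10 and 7 above 0. The one of them past both limits was Klhl42, which encodes an adaptor of a ubiquitin ligase, with 6.41 TPM in ST2fl/fl and 2.96 TPM in ST2WT cells (log2 fold change 0.91, limma adjusted p = 0.0226). Whether the difference in Itpr2 follows the loss of ST2 or sequence linked to the reporter was not tested.

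STIM1 and STIM2 are the sensors of store calcium, of which STIM2 is known to respond to smaller drops. Stim1 had 15.9, 11.9, 12.3 and 12.0 TPM in ST2fl/fl cells of recipients 1 to 4, and 12.9, 9.69, 12.0 and 12.9 TPM in ST2WT cells. The ST2fl/fl library of recipient 1 was the highest and the others lay within the range of the ST2WT libraries. The means were 13.0 ± 1.93 TPM in ST2fl/fl and 11.9 ± 1.52 TPM in ST2WT cells (SD, n = 4 each), and the log2 fold change of 0.12 (SE 0.13) was 0.04 (SE 0.11) without the ST2WT library of recipient 2. Stim2 had 10.7, 9.37, 10.2 and 12.3 TPM in ST2fl/fl cells of recipients 1 to 4, and 9.44, 6.88, 7.55 and 9.62 TPM in ST2WT cells. It was higher in ST2fl/fl cells of every recipient, although the ST2fl/fl library of recipient 2 lay below the higher ST2WT libraries, those of recipients 1 and 4. Its means were 10.6 ± 1.23 TPM in ST2fl/fl and 8.37 ± 1.36 TPM in ST2WT cells (SD, n = 4 each), with a log2 fold change of 0.32 (SE 0.14), or 0.24 (SE 0.12) without the ST2WT library of recipient 2. The ratio of Stim1 to Stim2 was 1.24 ± 0.213 in ST2fl/fl and 1.43 ± 0.111 in ST2WT cells.

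ORAI1 forms the pore of the calcium channel in the T cell membrane, and ORAI2 joins it in mouse T cells and lowers its current. Orai1 had 18.3, 19.9, 19.0 and 21.7 TPM in ST2fl/fl cells of recipients 1 to 4, and 17.9, 15.1, 16.8 and 20.5 TPM in ST2WT cells. Each recipient had the higher value in ST2fl/fl cells, by little except in recipient 2, and the groups overlapped. The means were 19.7 ± 1.48 TPM in ST2fl/fl and 17.6 ± 2.27 TPM in ST2WT cells (SD, n = 4 each), with a log2 fold change of 0.16 (SE 0.12), which was 0.10 (SE 0.095) without the ST2WT library of recipient 2. Orai2 had 8.55, 8.08, 7.06 and 7.76 TPM in ST2fl/fl cells of recipients 1 to 4, and 7.98, 5.06, 7.83 and 6.89 TPM in ST2WT cells. The groups overlapped, and in recipient 3 the ST2WT library was the higher one. Its means were 7.86 ± 0.626 TPM in ST2fl/fl and 6.94 ± 1.34 TPM in ST2WT cells (SD, n = 4 each), and the log2 fold change of 0.17 (SE 0.14) was 0.05 (SE 0.10) without the ST2WT library of recipient 2. The ratio of Orai1 to Orai2 was 2.52 ± 0.292 in ST2fl/fl and 2.59 ± 0.451 in ST2WT cells, a difference smaller than the spread in either genotype.

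Ppp3ca and Ppp3cb encode the alpha and beta catalytic subunits of calcineurin. Ppp3ca had 23.6, 18.8, 22.9 and 24.5 TPM in ST2fl/fl cells of recipients 1 to 4, and 19.5, 12.6, 20.6 and 18.3 TPM in ST2WT cells. It was higher in ST2fl/fl cells of every recipient, and only the ST2fl/fl library of recipient 2 lay inside the ST2WT range. The means were 22.5 ± 2.53 TPM in ST2fl/fl and 17.7 ± 3.56 TPM in ST2WT cells (SD, n = 4 each), with a log2 fold change of 0.34 (SE 0.16), or 0.19 (SE 0.10) without the ST2WT library of recipient 2. Ppp3cb had 36.9, 33.2, 34.7 and 35.9 TPM in ST2fl/fl cells of recipients 1 to 4, and 38.0, 22.0, 35.4 and 35.7 TPM in ST2WT cells. Apart from the low ST2WT library of recipient 2, the libraries of both genotypes lay together. The means were 35.2 ± 1.59 TPM in ST2fl/fl and 32.8 ± 7.29 TPM in ST2WT cells (SD, n = 4 each), and the log2 fold change of 0.13 (SE 0.16) turned to -0.05 (SE 0.070) without that library. Ppp3cb overlaps 1810062O18Rik, on the other strand, with 1.55 TPM in ST2fl/fl and 1.85 TPM in ST2WT cells. The ratio of Ppp3cb to Ppp3ca was 1.46 to 1.77 in ST2fl/fl and 1.72 to 1.96 in ST2WT cells, so the beta subunit was the more abundant transcript in every library.

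**Figure D4:**
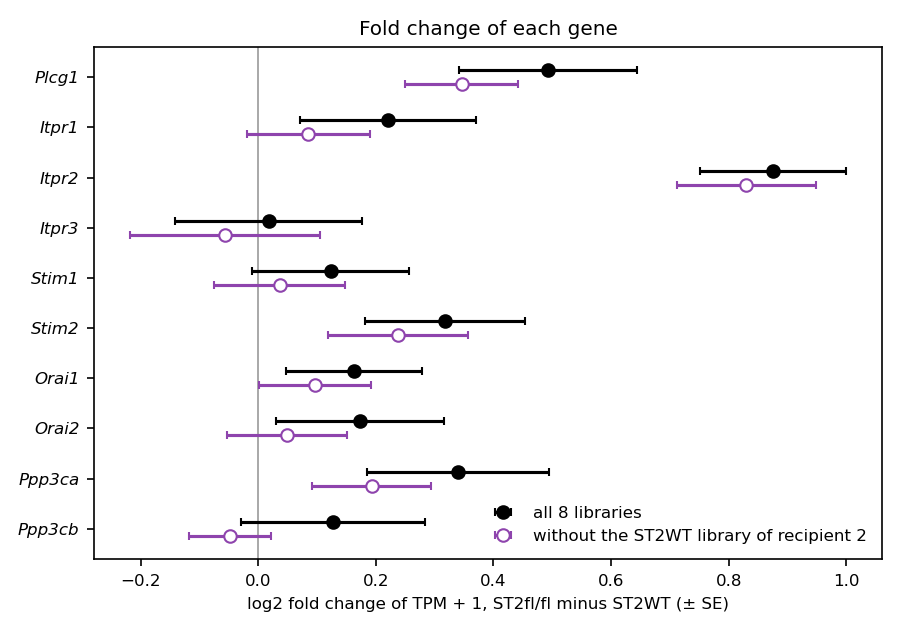
Log2 fold change (ST2fl/fl minus ST2WT) of TPM + 1 of each gene with its SE, from all 8 libraries (filled) and without the ST2WT library of recipient 2 (open). Itpr2 is at 0.88 and 0.83, while Itpr3 and Ppp3cb turn from above to below 0.

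TPM allow mean levels over the 8 libraries to be compared between genes per length. Of the 10 genes, Ppp3cb was highest with 34.0 TPM and Ppp3ca next with 20.1 TPM. Orai1 (18.7 TPM), Stim1 (12.5 TPM), Stim2 (9.50 TPM), Orai2 (7.40 TPM), Itpr1 (7.14 TPM), Plcg1 (6.99 TPM), Itpr2 (5.13 TPM) and Itpr3 (2.06 TPM) followed. The ranges of neighbors in this order overlapped, except those of Itpr2 and Itpr3. Ppp3cb stood above Ppp3ca in 8 of 8 libraries, but Ppp3ca above Orai1, Orai2 above Itpr1 and Itpr1 above Plcg1 in 5 of 8 each, so these 3 pairs did not differ beyond their spread. The order is over both genotypes, and the means ran Plcg1, Orai2, Itpr1 in ST2fl/fl cells and Orai2, Itpr1, Plcg1 in ST2WT cells. Itpr1 stood above Plcg1 in 4 of 4 ST2WT libraries and in 1 of 4 ST2fl/fl libraries.

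The genes varied together across libraries, and less so without the low ST2WT library of recipient 2. Over the 8 libraries the Pearson correlation of log2(TPM + 1) was above 0 in all 45 pairs of genes, with a median of 0.67. Within genotype it was above 0 in 43 pairs, with a median of 0.63. Without recipient 2's ST2WT library the median within genotype was 0.24, with a range of -0.87 to 0.91, and 32 pairs were above 0. Plcg1 and Ppp3cb formed the pair at the top of that range and Itpr2 and Orai1 the pair at the bottom. All genes of a library share its depth and preparation, so these are descriptions. Outside the set, the 5 genes most like the mean of its standardized values over 8 libraries were Pdk1, Zdhhc18, Tnrc6c, Sun2 and Tprgl. Their correlations were 0.996, 0.992, 0.992, 0.992 and 0.991, and 0.979, 0.957, 0.956, 0.953 and 0.949 without that library. Within genotype, with that library, they were 0.993, 0.988, 0.987, 0.986 and 0.985. These genes were picked as the highest of all genes tested, so high values were bound to follow.

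The other genes of the pathway were taken from 7 lists with 136 genes, of which 113 were in the table and 98 were tested. Of these, 62 had a log2 fold change above 0 and 36 below, where 51.7% of all genes were above 0. None was past both limits, either way, in the limma fit, with the recipient as a block or without the ST2WT library of recipient 2, where 0.518%, 0.928% and 1.01% of all genes were. At an unadjusted p under 0.05, 10 were higher and 3 lower in ST2fl/fl cells, where 7.11% of all genes were higher and 6.8% lower.

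Upstream, 17 genes that supply or remove IP3 had a median log2 fold change of 0.08 (0.11 without the ST2WT library of recipient 2), with 11 above 0. Inpp1, which breaks down inositol phosphates, had 14.3 ± 0.361 TPM in ST2fl/fl and 11.2 ± 1.53 TPM in ST2WT cells (log2 fold change 0.34, limma adjusted p = 0.246), and Zap70, the kinase next to the TCR, had 117 ± 6.22 TPM in ST2fl/fl and 101 ± 5.47 TPM in ST2WT cells (0.21, adjusted p = 0.296). Pip5k1a, which makes the lipid that Plcg1 cuts, was at 0.31 (adjusted p = 0.406) and Itpkb, an IP3 kinase, at 0.38 (adjusted p = 0.408). Without that library Pip5k1a was at 0.20 and Itpkb at 0.17. The 26 genes of store release, refilling and calcium entry had a median of 0.06 (0.02 without that library), with 16 above 0. Tmco1, a leak channel of the endoplasmic reticulum, had 62.8 ± 1.10 TPM in ST2fl/fl and 74.0 ± 6.72 TPM in ST2WT cells (-0.23, adjusted p = 0.288). Atp2b1, a calcium pump of the plasma membrane, was at 0.23 (adjusted p = 0.373), Sppl3, an intramembrane protease, at 0.30 (adjusted p = 0.374) and Kcnn4, a potassium channel opened by calcium, at 0.18 (adjusted p = 0.432), of which Atp2b1 was at 0.15 and Sppl3 at 0.17 without that library.

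For 12 genes of mitochondrial calcium uptake the median was -0.09 (-0.06 without the ST2WT library of recipient 2), with 8 below 0. They included Vdac3, a pore of the outer membrane, with 369 ± 38.5 TPM in ST2fl/fl and 448 ± 76.2 TPM in ST2WT cells (-0.27, limma adjusted p = 0.340). Mcur1 was at 0.20 (adjusted p = 0.509) and Vdac1 at -0.22 (adjusted p = 0.512). Without that library Vdac3 was at -0.16, Vdac1 at -0.05 and Mcur1 at 0.09. The 12 partners and inhibitors of calcineurin, a list that also holds Ppp3cc, had a median of -0.05 (-0.02 without that library), with 8 below 0. Ppia, which encodes cyclophilin A, had 3016 ± 140 TPM in ST2fl/fl and 3296 ± 174 TPM in ST2WT cells (-0.13, adjusted p = 0.345). The calcineurin inhibitors Cabin1 and Tbc1d10c were at 0.15 (adjusted p = 0.541) and -0.15 (adjusted p = 0.635), where Tbc1d10c was at 0.01 without that library.

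The 12 NFAT factors and kinases that rephosphorylate them had a median of 0.23, with 10 above 0, and 0.10 without the ST2WT library of recipient 2. Nfat5, the NFAT family member that calcineurin does not regulate, had 3.15 ± 0.284 TPM in ST2fl/fl and 2.09 ± 0.334 TPM in ST2WT cells (0.43, limma adjusted p = 0.191). The kinases Dyrk2, Dyrk1a and Gsk3a were at 0.45 (adjusted p = 0.347), 0.35 (adjusted p = 0.359) and 0.31 (adjusted p = 0.464). Without that library Dyrk1a was at 0.19 and Gsk3a at 0.13. All 5 calmodulin-dependent kinases were above 0, with a median of 0.18 (0.08 without that library), namely Camk1d at 0.36 (adjusted p = 0.340), Camk2d at 0.23 (adjusted p = 0.362), Camk4 at 0.18 (adjusted p = 0.491), Camk2g at 0.10 (adjusted p = 0.740) and 1 other. Without that library Camk1d was at 0.23, Camk4 at 0.08 and Camk2g at -0.01.

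The 14 target genes of calcineurin and NFAT had the highest median of the 7 lists, 0.31 (0.29 without the ST2WT library of recipient 2), with 12 above 0. Il10, an inhibitory cytokine, had 21.3 ± 9.77 TPM in ST2fl/fl and 8.88 ± 1.19 TPM in ST2WT cells (SD, n = 4 each), a log2 fold change of 1.09 that missed the limit (limma adjusted p = 0.0835). Fasl, the death ligand, had 104 ± 16.6 TPM in ST2fl/fl and 72.3 ± 6.10 TPM in ST2WT cells (0.51, adjusted p = 0.110). Egr2, a transcription factor of T cell anergy, was at 0.46 (adjusted p = 0.216) and Irf4, a factor induced with TCR signal strength, at 0.35 (adjusted p = 0.263). Other targets above 0, named after their values were seen, included the cytokine genes Il2, Il21, Csf2, Tnf and Il4. They were at 0.50, 0.41, 0.40, 0.19 and 0.04 (limma adjusted p = 0.350, 0.549, 0.438, 0.539 and 0.942). The 2 targets below 0, also named after their values were seen, were Ifng, the Th1 cytokine interferon gamma, and Cd40lg, which encodes CD40 ligand. Ifng had 115 ± 29.7 TPM in ST2fl/fl and 187 ± 108 TPM in ST2WT cells, with the ST2fl/fl library the lower one in 4 of 4 recipients (-0.57, adjusted p = 0.455, and -0.23 without the ST2WT library of recipient 2), and Cd40lg was at -0.18 (adjusted p = 0.486). Some of these targets are also regulated by cytokines, and which signal their levels follow was not tested.

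**Figure D5:**
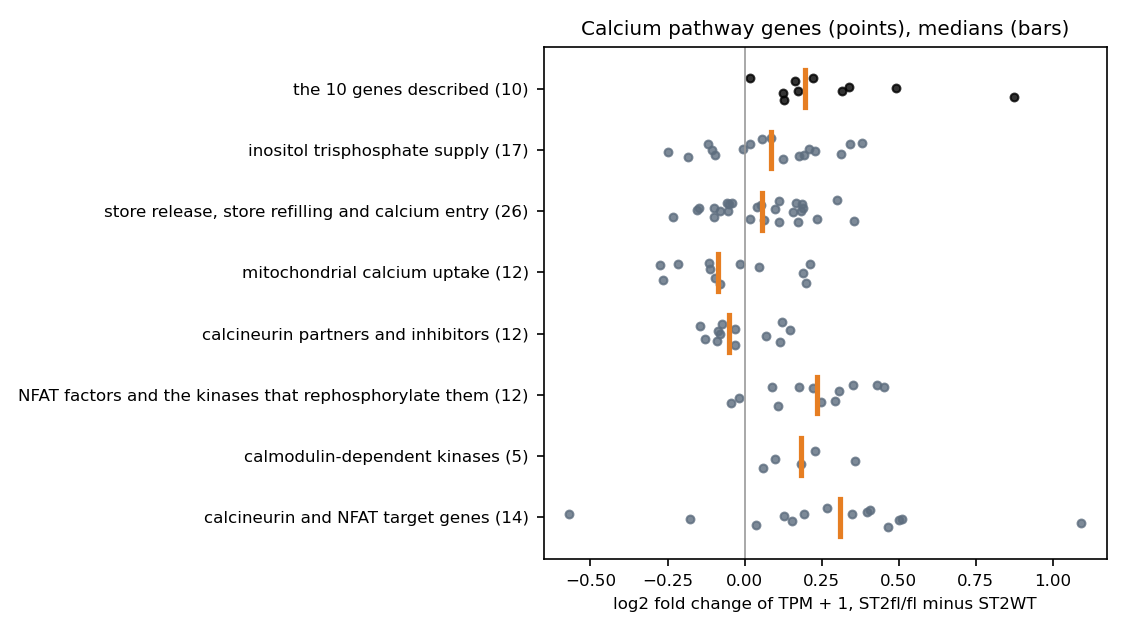
Log2 fold change (ST2fl/fl minus ST2WT) of TPM + 1 for the 10 genes described (black) and for the tested genes of 7 calcium pathway lists (gray), with the number of genes in parentheses and an orange bar at each median. List medians run from -0.09 for mitochondrial calcium uptake to 0.31 for calcineurin and NFAT targets, and no list gene is past both limits.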

How the data were processed

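The authors aligned and counted the reads in CLC Genomics Workbench 20.0.3 against GRCm38.p6 and deposited TPM per gene, 999334 to 999527 TPM in each library. No value is 0, so genes missed in any library are absent from the table. The authors compared reads with edgeR, which TPM do not allow. Here, log2(TPM + 1) of the 10238 genes averaging 1 TPM or more (2179 were dropped) was fitted with limma 3.58.1 (R 4.3.3), with a variance trend on expression. Each SE is from a fit that takes the libraries as unpaired. Over all 8 libraries the SE of the 10 genes was 0.12 to 0.16 in that fit. It was 0.10 to 0.14 with the recipient as a block. Fold changes on this scale understate those of low genes. A gene was past both limits at an adjusted p (Benjamini-Hochberg) below 0.05 with more than a 1.5-fold change. The fit was tested on simulated data. Named genes are the 10 described, up to 4 per list by smallest p, the 5 most alike, and some others named after their values were seen. Results of some single genes are left out. The genes and lists were chosen with earlier results of these data known. Same-numbered libraries were taken to share a recipient, since the study sorted both populations from the same spleen, but the labels do not name it. Their deviations from the genotype means correlated at 0.12 to 0.35 (different numbers, -0.28 to 0.11), ranges that nearly meet. Gene positions are from GENCODE M21, which held 1 gene for 96.8% of symbols, and promoters from RefSeq. The alternatives changed the pseudocount, filter, scaling, variance model or library weights, added the recipient as a block, or left out a library or recipient.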

Additional observations from a re-analysis of the deposited data

Results flagged for a closer look

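In 2 of 20 groups of 4 libraries (10 genes in each genotype) 1 library lay far from the others, where chance gives about 1 in 20. Stim1 had 15.9 TPM in the ST2fl/fl library of recipient 1, against 11.9 to 12.3 TPM in the other ST2fl/fl libraries. Ppp3cb had 22.0 TPM in the ST2WT library of recipient 2, against 35.4 to 38.0 TPM in the other ST2WT libraries.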

How the results depend on the processing

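TPM give no read counts, 4 recipients give few degrees of freedom, and 1 low ST2WT library moved most of these genes. Of 219 values of single genes under 22 alternatives, 218 lay within 1 SD of the reported one, and the exception was Itpr2, at 1.04 with a pseudocount of 0.1 and 0.83 to 0.96 otherwise. This limit is wide, and values within it included changes of sign. Ppp3cb went from 0.13 to -0.05 without the ST2WT library of recipient 2. Itpr3 went from 0.02 to -0.11 without both libraries of recipient 3. Itpr3 has no value with a 5 TPM filter. The median log2 fold change of the 10 genes was 0.09 to 0.26. The count of genes past both limits was 95 with the replicate block, 130 with array weights and 117 with the replicate block without replicate 2, 23 to 104 with 1 library left out (23 without ST2fl/fl 1, 31 without ST2fl/fl 3, 32 without ST2fl/fl 4, 35, 32 and 32 without ST2WT 1, 3 and 4, 44 without ST2fl/fl 2 and 104 without ST2WT 2) and 9 to 107 with 1 recipient left out (9 without recipient 1, 107 without recipient 2). Added alone, the replicate block left the count past both limits at 1 among the 10 genes and at 0 among the pathway genes. Of the 10 genes, 0 to 1 were past both limits with a library or recipient left out. As a description of the chosen gene, Itpr2 was past both limits in 9 of 9 fits with all libraries, where 37 to 130 of all genes were. It was past them in 7 of 8 fits with 1 library left out, where 23 to 104 of all genes were. With 1 recipient left out it was past them in 1 of 4, where 9 to 107 of all genes were. These fits reuse the same libraries and are not separate support. Of the pathway genes, 2 were past both limits with array weights (Fasl and Il10), 1 with the replicate block without replicate 2 (Fasl), and 0 to 1 with a library or recipient left out. Leaving out recipient 2 with the block was chosen after seeing the data.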
